A study of Sus scrofa with 24 samples.

Results

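The comparison between the hydrolyzed fat (HF) and the control (CON) formula in small for gestational age (SGA) piglets was examined in the hippocampus at postnatal day 14. Its members were chosen by title and sample labels, as the 6 SGA HF and the 6 SGA CON piglets, which were 12 of the 24 RNA-seq libraries of the series. SGA denotes piglets of low weight at birth. HF stands here for hydrolyzed fat and does not denote a high-fat diet. The CON formula supplied its fat as triglyceride-rich oils, and in the HF formula part of the triglyceride was replaced by soy free fatty acids, a monoacylglycerol of palmitate and soy lecithin. The HF formula also held cholesterol, which the CON formula lacked, and more total choline, so the formulas differed in more than the form of the fat. All piglets were PIC Camborough (dam) by PIC 359 (sire) crosses, were reared on formula, and carried no transgene or deletion. The other 12 libraries came from appropriate for gestational age (AGA) littermates, 6 on each formula, and served here to estimate the spread and for values set side by side. Replicates 1 to 3 of each group were brought in as cohort 1 and replicates 4 to 6 as cohort 2, and each group held 3 males and 3 females. Every SGA piglet came from a littermate pair of its own, so the diets were compared between unrelated pairs as far as the labels tell. Whether some pairs shared a sow is not given in the sources used here.

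Newborns digest triglycerides poorly, since pancreatic lipase and bile salts are still scarce, and fat that is already hydrolyzed can be taken up without that step. The brain uses fatty acids and cholesterol for membranes and for myelin, the lipid-rich sheath that oligodendrocytes wrap around axons, and it makes nearly all of its cholesterol itself. The hippocampus serves learning and memory. It keeps dividing precursors in the dentate gyrus after birth, and its microglia, the resident immune cells, prune synapses and present antigen when activated. Dissected tissue can carry pieces of neighbouring structures, such as meninges, choroid plexus and vessels, so their marker genes were followed in each library.

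The SGA libraries held between 6017336 and 9284355 counts assigned to genes (median 7737642), at which 3 counts correspond to 0.323 to 0.499 CPM, the count of a gene scaled to the total of its library. The labelled tissue was checked against markers of hippocampal pyramidal and granule neurons, whose summed level was 4249 to 4776 CPM in SGA HF and 4120 to 4868 CPM in SGA CON. PROX1, the transcription factor of dentate granule cells, was present in all 12 libraries at 37.1 to 64.4 CPM. Several SGA libraries stood apart. SGA HF replicate 4 carried pituitary hormone transcripts, SGA HF replicate 2, SGA CON replicate 2 and SGA CON replicate 3 carried immunoglobulin transcripts, SGA HF replicates 1 and 2 and SGA CON replicate 6 carried transcripts of meninges and fibroblasts, and SGA CON replicate 1 had the highest level of the choroid plexus transcript TTR, at 146 CPM. SGA CON replicate 3 held 15 genes with at least 10 counts and at least 5 times the level of any of the other 23 libraries. No other SGA library held more than 3 such genes, a rule chosen after the values were seen.

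Of 16326 genes tested, 15 (0.0919%) differed between SGA HF and SGA CON at an adjusted p under 0.4, the lenient threshold that the study used for its heat map. The test was edgeR's quasi-likelihood test with sex and 5 surrogate variables as covariates, the latter estimated from the data to absorb variation that no label gives, with Benjamini-Hochberg adjustment over all 7 contrasts of the 4 groups. In the fit, 12 of these (0.0735%) were higher and 3 (0.0184%) were lower in SGA HF. The 12 include LOC100623458, LOC102161607 and LOC102168097, whose mean CPM was lower in SGA HF than in SGA CON. At the stricter threshold of 0.05 a single gene, GH1, remained. Without adjustment, 843 genes (5.16%) had a p under 0.05, against 816 that chance alone would give. Over all genes tested, the standard error of the log2 fold change had a median of 0.14. In bulk tissue, fewer cells of a type and less RNA per cell cannot be told apart. The 15 genes fell into a group detected in every SGA piglet and a group carried by few libraries.

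Of the genes called, 8 were detected in all 12 SGA piglets, 5 higher and 3 lower in SGA HF. The widest separation was that of LOC102165614, an uncharacterized gene on an unplaced contig, which stood at 2.14 (lowest), 2.40 (median) and 2.81 CPM (highest) in SGA HF and at 0.455, 0.945 and 1.51 CPM in SGA CON. All 6 HF piglets lay above all 6 CON piglets, and this gene was the 1 called gene among the 27 (0.165%) without overlap between diets. The log2 fold change was 1.25 ± 0.28 (SE), with an adjusted p of 0.271 (edgeR). The exact two-sided permutation p was 0.00216, the smallest that splits of 6 against 6 allow. It follows from the lack of overlap and is no separate evidence. The difference was present in cohort 1 (0.99 in mean log2 CPM) and in cohort 2 (1.48).

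LOC100155915, also uncharacterized, lies on chromosome 14 at 133940999 to 134028498 of Sscrofa10.2. It stood at 1.78, 2.39 and 2.98 CPM (lowest, median, highest) in SGA HF and at 0.329, 1.27 and 2.19 CPM in SGA CON. The highest CON piglet, replicate 3, lay above the lowest HF piglets, and the difference was 0.43 in cohort 1 and 1.63 in cohort 2 in mean log2 CPM. Its log2 fold change was 1.29 ± 0.31 (edgeR adjusted p = 0.371, exact permutation p = 0.00866). Both LOC genes were near 3 counts in the lowest libraries, so single values carry large counting error.

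CLDN6 encodes claudin 6, a tight junction protein of embryonic and early epithelia, and lies on chromosome 3 at 40527340 to 40531326. Its level was 1.36, 1.94 and 2.38 CPM in SGA HF and 0.378, 1.06 and 2.14 CPM in SGA CON. Only the highest CON piglet, replicate 6, reached above the HF median. SGA HF was higher by a log2 fold change of 1.16 ± 0.29 (edgeR adjusted p = 0.379, exact permutation p = 0.0238). CLDN6 likewise rested on few reads, with 10 to 21 counts per SGA HF library and 3 to 13 per SGA CON library. TSSK4, a kinase best known from the testis, lies on chromosome 7 at 80362311 to 80374993 and stood at 11.0, 13.4 and 15.1 CPM in SGA HF and at 8.01, 10.6 and 12.8 CPM in SGA CON. The groups overlapped between 11.0 and 12.8 CPM, and the log2 fold change was 0.50 ± 0.12 (edgeR adjusted p = 0.349, exact permutation p = 0.0216).

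NDUFA12, an accessory subunit of respiratory complex I, was the most abundant of the genes called. It lies on chromosome 5 at 92639666 to 92664026 and stood at 101, 111 and 121 CPM in SGA HF and at 77.1, 96.9 and 113 CPM in SGA CON. The HF piglets kept within a narrow band (111 ± 6.8 CPM, SD, n = 6) at the upper end of the CON piglets (96.5 ± 14 CPM). The log2 fold change of 0.31 ± 0.071 had an edgeR adjusted p of 0.308, while the exact permutation p, which uses no covariates, was 0.0584.

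The other 3 genes of this group were lower in SGA HF. PSORS1C2, a gene named for a psoriasis susceptibility locus, lies within the major histocompatibility complex on chromosome 7 at 27290516 to 27293281. It stood at 2.58, 5.47 and 7.91 CPM in SGA HF and at 6.39, 9.76 and 11.2 CPM in SGA CON. Its log2 fold change was -0.81 ± 0.19 (edgeR adjusted p = 0.367, exact permutation p = 0.0108), and the difference in mean log2 CPM was -1.0 in cohort 1 and -0.54 in cohort 2. MCFD2, which forms with LMAN1 the cargo receptor that carries clotting factors from the endoplasmic reticulum to the Golgi, lies on chromosome 3 at 99712888 to 99719379.

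MCFD2 stood at 38.2, 53.8 and 60.95 CPM in SGA HF and at 59.7, 65.0 and 75.3 CPM in SGA CON. Only the highest HF piglet, replicate 1, reached into the range of the CON piglets. SGA HF was lower, at a log2 fold change of -0.32 ± 0.078 (edgeR adjusted p = 0.382, exact permutation p = 0.00433). FAM122B, a relative of a phosphatase inhibitor, lies on chromosome X at 126460757 to 126481778 and stood at 17.9, 20.1 and 24.2 CPM in SGA HF and at 20.05, 26.3 and 29.5 CPM in SGA CON. Its log2 fold change was -0.40 ± 0.098 (edgeR adjusted p = 0.371, exact permutation p = 0.0346), with -0.37 in cohort 1 and -0.18 in cohort 2 in mean log2 CPM.

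**Figure D1:**
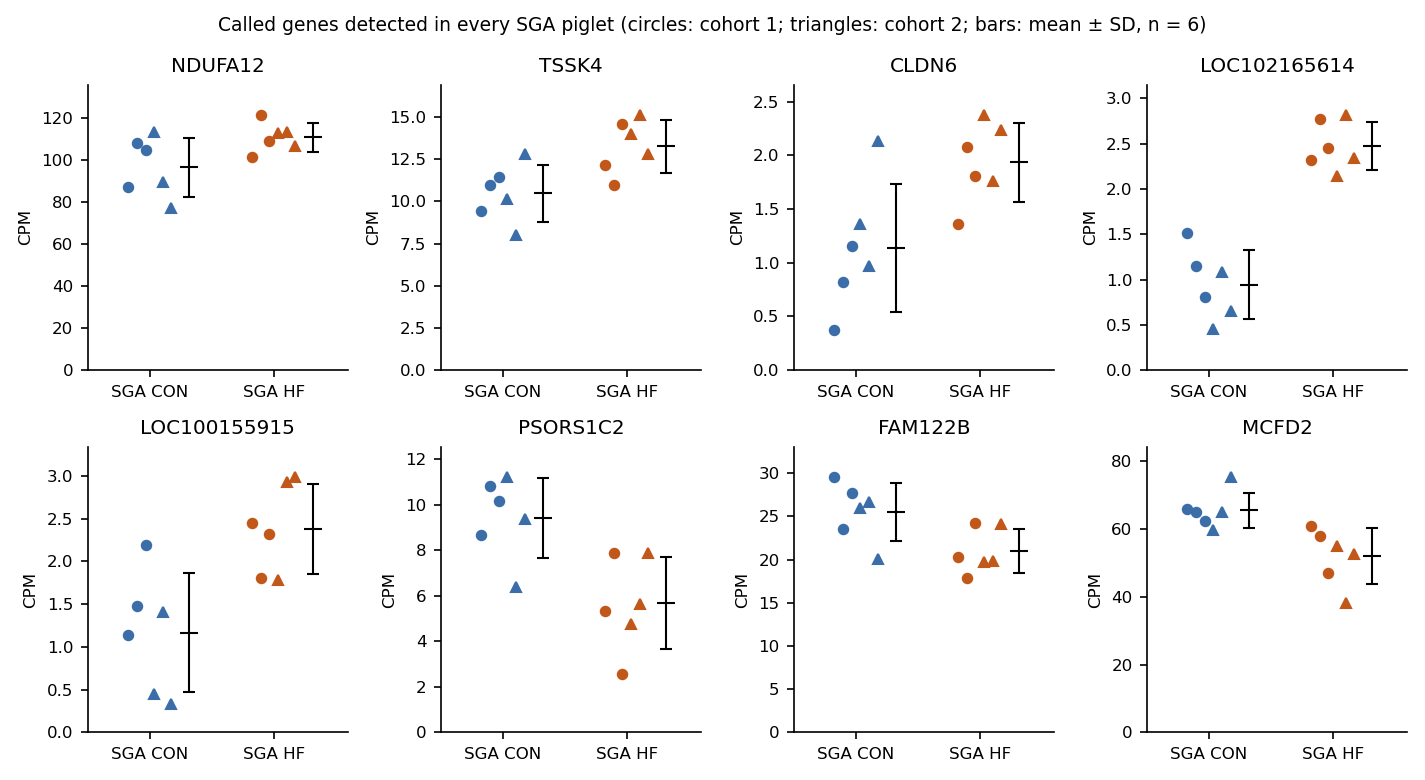
CPM (y axis, from 0) of the 8 called genes detected in all 12 SGA piglets, by diet (x axis); each point is 1 piglet, circles are cohort 1, triangles are cohort 2, and bars give the mean ± SD of 6 piglets. LOC102165614 is the gene whose diets do not overlap (2.14 CPM and above in SGA HF, 1.51 CPM and below in SGA CON), and in the other 7 panels the ranges of the diets meet.

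The remaining 7 genes called owed their level to few libraries. GH1, growth hormone, lies on chromosome 12 at 15056362 to 15058095 and stood at 0.107, 0.813 and 306 CPM in SGA HF and at 0, 0 and 0.758 CPM in SGA CON. SGA HF replicate 4 held 98.8% of the HF signal. Of the other 5 HF piglets, replicates 1 and 2 were above every CON piglet, at 1.91 and 1.11 CPM, and replicates 3, 5 and 6 were below the highest CON piglet. The log2 fold change was 7.38 ± 1.02 (edgeR adjusted p = 0.0181), the difference in mean log2 CPM was 2.32 in cohort 1 and 3.08 in cohort 2, and the exact permutation p was 0.0195. Without SGA HF replicate 4 the log2 fold change was 4.45 and GH1 was no longer called (adjusted p = 0.552).

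The same library was also the one with other hormones of the anterior pituitary. PRL, prolactin, had 62 counts there and 0 in each of the other 11 SGA libraries, and CGA, the subunit shared by the glycoprotein hormones, had 60 counts there and at most 8 in the others. LHB, the luteinizing hormone beta subunit, stood at 15.1 CPM there, and POMC, the precursor of corticotropin, had 410 counts there against 168 to 309 in the other SGA libraries. TSHB, FSHB and POU1F1, which define thyrotropes, gonadotropes and the growth hormone lineage, had 0 counts in all 24 libraries. GH1, PRL and CGA were the 3 genes of SGA HF replicate 4 with at least 10 counts and at least 5 times the level of any other library. The part of these transcripts in the GH1 result was not tested beyond leaving that library out.

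TNMD and PRG4 are genes of connective tissue. TNMD encodes tenomodulin, a membrane protein of tendon and other dense connective tissue, and PRG4 encodes lubricin, the lubricating proteoglycan of joint surfaces. TNMD, on chromosome X at 90109157 to 90132534, stood at 0.352, 1.14 and 5.55 CPM in SGA HF and at 0, 0.140 and 2.47 CPM in SGA CON. Every HF piglet was above every CON piglet, with the exception of CON replicate 6. In cohort 2 this rested on few reads, with 3 to 8 counts in SGA HF against 2 and 0 in SGA CON replicates 4 and 5. The log2 fold change was 3.69 ± 0.75 (edgeR adjusted p = 0.224, exact permutation p = 0.0519), with a difference in mean log2 CPM of 3.06 in cohort 1 and 0.17 in cohort 2. TNMD was the only gene called in all 12 fits that left out 1 SGA library in turn. Those fits held surrogate variables. With sex and cohort and no surrogate variables, in 24 libraries, TNMD was not called (edgeR adjusted p = 0.785).

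PRG4, on chromosome 9 at 139907666 to 139933143, stood at 0.129, 0.322 and 2.78 CPM in SGA HF and at 0, 0 and 0.822 CPM in SGA CON, with SGA CON replicate 6 as the only CON piglet above 0. Its fitted log2 fold change of 7.56 rests on CON libraries at 0 and gives no bound (edgeR adjusted p = 0.224, exact permutation p = 0.0563). The libraries high in TNMD and PRG4 were also high in other markers of meninges. CRABP2, a retinoic acid binding protein, stood at 7.23, 10.7 and 6.41 CPM in SGA HF replicates 1 and 2 and SGA CON replicate 6 and at most 1.66 CPM in the other 9 SGA libraries. SLC13A4, a sulfate transporter, stood at 20.7, 25.95 and 27.0 CPM in the same 3 libraries and at most 7.89 CPM in the others.

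Over the list of 20 tested markers of meninges and fibroblasts, 16 were higher in SGA HF, with a median log2 fold change of 0.12, against 50.4% of all genes higher and a median of 0.0015. The summed level of the list was 402 to 618 CPM in SGA HF and 382 to 601 CPM in SGA CON. The direction of the list rested on those libraries. When SGA HF replicates 1 and 2 and SGA CON replicate 6 were left out together, 13 of 18 tested markers were lower with a median of -0.06, and in cohort 2 alone 13 of 17 were lower with a median of -0.17. In the fit without the 3 libraries, TNMD had a log2 fold change of 2.75 and was not called (edgeR adjusted p = 0.497). The share of this tissue in the remaining difference was not tested.

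LOC100512054, an uncharacterized gene on chromosome 6 at 53763165 to 53766227, had 0 counts in all 6 CON piglets and 50 counts in the HF piglets together. It was carried by SGA HF replicates 2, 4 and 5, and the HF piglets stood at 0, 0.694 and 2.73 CPM. Against a floor of 3 counts over the CON group, the pooled HF level of 1.03 CPM was at least 15.3-fold higher (edgeR adjusted p = 0.217, exact permutation p = 0.182). The remaining 3 genes called, LOC100623458, LOC102161607 and LOC102168097, lie near each other on chromosome 14, between 52245854 and 52540090, and LOC100623458 is annotated as a variable segment.

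In SGA HF, LOC100623458 stood at 41.5 CPM in replicate 2 and at most 0.234 CPM in the other 5. In SGA CON it stood at 46.3 CPM in replicate 2, 6.46 CPM in replicate 3 and 0 in the other 4. The diets therefore had 1 and 2 carriers, and the exact permutation p was 0.924, although the fit with surrogate variables gave a log2 fold change of 3.02 (edgeR adjusted p = 0.224). LOC102161607 followed the same libraries, at 40.7 CPM in SGA HF replicate 2 and 47.5 and 8.08 CPM in SGA CON replicates 2 and 3 (exact permutation p = 0.848). LOC102168097 was present in SGA CON replicate 3 at 5.54 CPM and at most 0.28 CPM elsewhere among the SGA piglets, so the mean was higher in CON while the fitted log2 fold change was 6.74 (exact permutation p = 0.955). The direction of these 3 fitted values is not that of the group means, and each fitted value was negative in fits of all 24 libraries without surrogate variables.

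LOC396781, which the name table pairs with the synonym IGHG, an immunoglobulin gamma heavy chain, was not called and was high in the same libraries. It stood at 185 CPM in SGA HF replicate 2, 277 CPM in SGA CON replicate 2 and 51.2 CPM in SGA CON replicate 3, with at most 1.84 CPM in the other 9. Reads that match several genes were not counted by the default of the counting tool, so levels of immunoglobulin and major histocompatibility genes, which have near-identical copies, are uncertain. When the 3 libraries were left out together, 1 gene of the comparison was called.

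**Figure D2:**
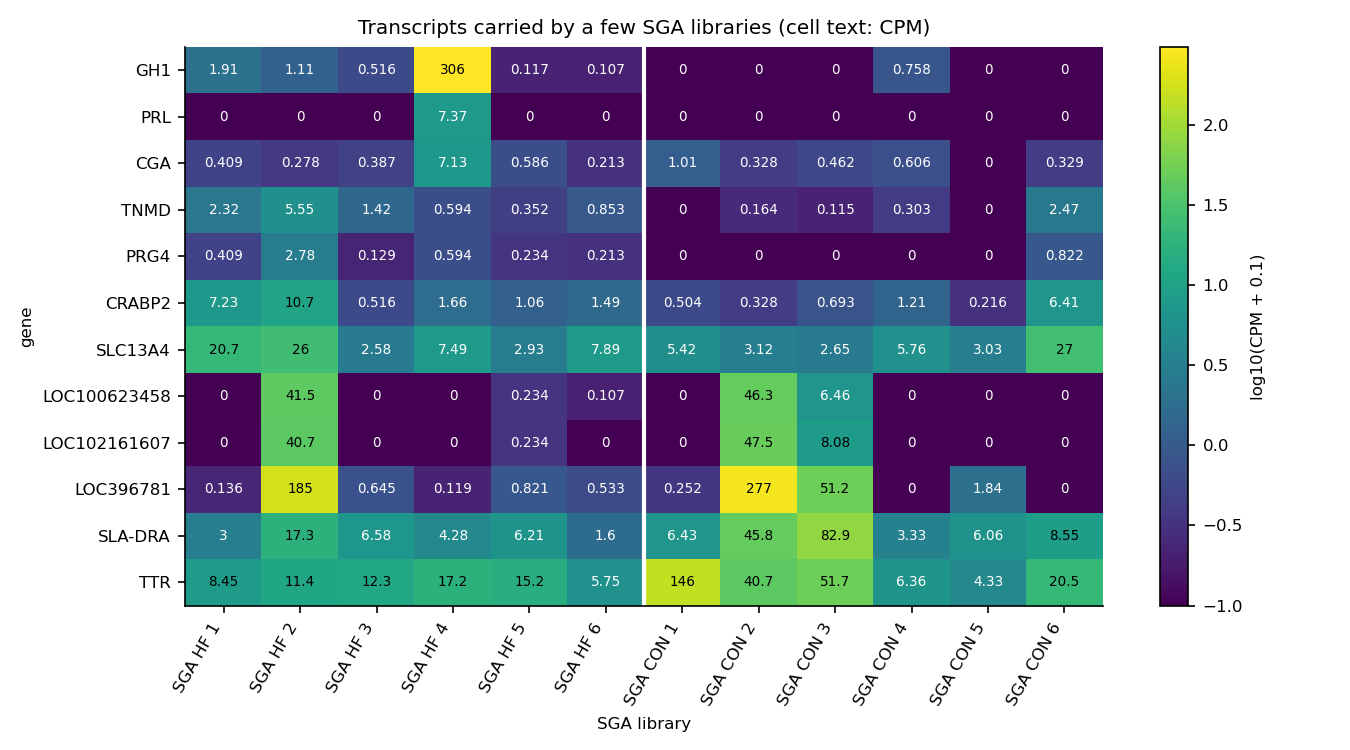
CPM of 12 transcripts (rows) in each of the 12 SGA libraries (columns), coloured by log10(CPM + 0.1) with the CPM written in each cell. GH1, PRL and CGA are high in SGA HF 4 (306, 7.37 and 7.13 CPM), the connective tissue genes in SGA HF 1, SGA HF 2 and SGA CON 6, and the immunoglobulin genes in SGA HF 2, SGA CON 2 and SGA CON 3.

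Beyond the genes called, the genes with a symbol and the next smallest p were followed, to make up 15 in each direction. The largest adjusted p among the genes called was 0.382, that of MCFD2, and the smallest among those not called was 0.402. GP1BB, a subunit of the platelet receptor for von Willebrand factor, stood just outside. Its level was 1.03, 1.27 and 1.80 CPM in SGA HF and 0.455, 0.599 and 0.923 CPM in SGA CON, without overlap (log2 fold change 1.29 ± 0.34, edgeR adjusted p = 0.402). These levels rested on few reads, with 8 to 13 counts per SGA HF library and 3 to 8 per SGA CON library. TMEM258, a subunit of the oligosaccharyltransferase complex that attaches sugars to new proteins, stood at 26.9, 29.1 and 32.5 CPM in SGA HF and at 21.35, 23.4 and 28.0 CPM in SGA CON, with a log2 fold change of 0.41 ± 0.11 (edgeR adjusted p = 0.402). SLC26A1, a sulfate transporter, stood at 4.72, 5.55 and 5.86 CPM in SGA HF and at 3.03, 3.47 and 3.94 CPM in SGA CON, again without overlap, with a log2 fold change of 0.62 ± 0.18 (edgeR adjusted p = 0.478).

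STK24, a serine and threonine kinase, showed a pattern of its own, with SGA HF replicates 2, 4 and 5 at 43.6, 43.0 and 37.4 CPM and the other 9 SGA libraries between 11.5 and 22.3 CPM. Among AGA libraries, HF replicate 6 and CON replicate 4 were likewise high, at 44.9 and 39.8 CPM. Its log2 fold change was 0.80 ± 0.21 (edgeR adjusted p = 0.421). The other genes in the higher direction were GAMT, of creatine synthesis (log2 fold change 0.28), the kinase STK32A (1.10), the splicing factor SCNM1 (0.27) and BTBD6 (0.30), with edgeR adjusted p between 0.428 and 0.446, and CRABP2 (2.21, adjusted p = 0.471).

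On the lower side 17 genes (0.104%) had no overlap between diets, against 10 (0.0613%) on the higher side, and none of these 17 was called. A random split of 6 against 6 gives no overlap, in either direction, with a probability of 0.00216 per gene. The 27 genes (0.165%) of both sides were a smaller share than that, so their number was not above chance. HEYL, a transcription factor downstream of Notch, stood at 14.0, 19.95 and 22.9 CPM in SGA HF and at 23.05, 24.9 and 37.9 CPM in SGA CON (log2 fold change -0.44 ± 0.12, edgeR adjusted p = 0.428). CFP, properdin, which stabilizes the convertase of the alternative complement pathway, stood at 3.62, 4.78 and 5.80 CPM in SGA HF and at 5.91, 6.56 and 9.81 CPM in SGA CON (-0.61 ± 0.17, edgeR adjusted p = 0.428). PRSS53, a serine protease, stood at 1.29, 1.62 and 1.91 CPM in SGA HF and at 2.27, 2.78 and 3.95 CPM in SGA CON (-0.84 ± 0.24, edgeR adjusted p = 0.475). In each of the 3 genes every HF piglet was below every CON piglet. This by itself sets the exact permutation p to its smallest value, so that p adds no separate evidence.

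SOCS2, which dampens growth hormone and cytokine signalling, belonged to the same set, at 16.3, 17.1 and 18.4 CPM in SGA HF and 19.7, 21.0 and 24.25 CPM in SGA CON. Its fitted log2 fold change was -0.25 ± 0.11 (edgeR adjusted p = 0.691). WNT7A, a secreted Wnt ligand, stood at 19.8, 22.95 and 26.0 CPM in SGA HF and at 24.4, 28.5 and 33.0 CPM in SGA CON (-0.34 ± 0.11, edgeR adjusted p = 0.506). HS3ST4, a heparan sulfate sulfotransferase, had a log2 fold change of -0.23 in SGA and of -0.31 in AGA piglets. The other genes in the lower direction were SAFB2 (-0.30), AMMECR1L (-0.38), MFRP (-2.45, at most 0.387 CPM in SGA HF), MEF2B (-0.53), PPP1CC (-0.30) and IQCK (-0.82).

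The same formulas were compared in the AGA littermates, with diet groups of 6. The AGA log2 fold changes were -0.18 for LOC102165614, -0.03 for LOC100155915, -0.43 for CLDN6, -0.07 for TSSK4, 0.04 for PSORS1C2, -0.01 for FAM122B and 0.07 for MCFD2. NDUFA12 was higher in both (0.31 in SGA and 0.18 in AGA), and its interaction of size and diet had an unadjusted p of 0.195. TNMD and PRG4 had AGA log2 fold changes of 1.27 and 2.25. The AGA log2 fold change of GH1 was 1.18 in the fit (unadjusted p = 0.682), while its mean was 0.0684 CPM in AGA HF and 1.02 CPM in AGA CON. The interaction test shares the SGA libraries with the diet contrast that chose these genes, and 13 of the 15 had an unadjusted interaction p under 0.05. After adjustment 8 genes of the whole table (0.0490%) passed for the interaction, and 2 of the 15 were among them, CLDN6 (log2 1.59, edgeR adjusted p = 0.375) and LOC102168097 (log2 6.09, edgeR adjusted p = 0.371). The means of LOC102168097 went against that fitted value, at 0.125 CPM in SGA HF and 0.941 CPM in SGA CON beside 1.84 CPM in AGA HF and 1.71 CPM in AGA CON, so no direction is drawn from it. At the same threshold 11 genes (0.0674%) were called for diet in AGA piglets.

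Gene lists were described by counts and medians, with no test, beside all genes, of which 50.4% were higher, 2.74% were higher and 2.42% lower at an unadjusted p under 0.05, and the median log2 fold change was 0.0015. Of the 33 lists, the lowest median was that of antigen presentation by class II molecules of the major histocompatibility complex (named SLA in the pig), which load peptides for helper T cells. All 9 tested genes were lower in SGA HF, with a median log2 fold change of -0.47, 4 of them with an unadjusted p under 0.05 and none called. Their summed level was 34.2, 42.5 and 79.0 CPM in SGA HF and 40.4, 59.4 and 265.8 CPM in SGA CON. SLA-DQB1, a beta chain, stood at 2.77, 5.31 and 9.71 CPM in SGA HF and 4.55, 9.14 and 35.7 CPM in SGA CON, with a log2 fold change of -0.91 ± 0.32. SLA-DRB1 had -0.86 ± 0.33 and CTSS, the protease that trims the invariant chain, had -0.47 ± 0.22.

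The highest class II sums were those of SGA CON replicates 2 and 3, which were also the CON libraries with immunoglobulin transcripts. Without SGA CON replicate 3, 8 of 8 tested genes were lower with a median of -0.28, and without SGA CON replicates 2 and 3 and SGA HF replicate 2 together, 7 of 8 were lower with a median of -0.22 and none had an unadjusted p under 0.05. Without SGA HF replicate 4, 9 of 9 were lower with a median of -0.44. The median also depended on the covariates. With sex and cohort and no surrogate variables it was -1.40 in all 24 libraries, with 8 of 9 genes at an unadjusted p under 0.05, and -1.03 in the 12 SGA libraries alone, with 6 of 8. The median difference in mean log2 CPM was -1.57 in cohort 1, which held all 3 libraries with immunoglobulin transcripts, and -0.33 in cohort 2. In AGA piglets the median log2 fold change of the list was -0.05.

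Class I genes, which present peptides on all cells, were lower in 15 of 16 cases with a median of -0.17. SLA-3, a classical class I heavy chain, stood at 41.9, 49.5 and 105.5 CPM in SGA HF and 41.2, 101 and 418 CPM in SGA CON (log2 fold change -0.74 ± 0.25), with the highest value in SGA CON replicate 2. CALR, calreticulin, a chaperone of the endoplasmic reticulum that helps load class I molecules, stood at 393, 432 and 459 CPM in SGA HF and 426, 512 and 634 CPM in SGA CON (-0.25 ± 0.085). By the difference in mean log2 CPM, 9 of the 16 were lower in cohort 2, against 15 of 16 in cohort 1. Without SGA HF replicates 1 and 2 and SGA CON replicate 6 together, 8 of 16 were lower with a median of -0.01, and without SGA HF replicate 2 and SGA CON replicates 2 and 3 together, 11 of 16 with a median of -0.08. The median was -0.32 without surrogate variables, with sex and cohort in all 24 libraries. Of 27 interferon-stimulated genes 16 were lower (median -0.13), with IFIT2 at -0.78 ± 0.30, while IFIH1, a sensor of viral RNA, was at 0.97 ± 0.38. Both lists were also lower on the HF formula in AGA piglets. There 12 of 16 class I genes (median -0.16) and 21 of 27 interferon-stimulated genes (median -0.17) were lower.

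Microglial genes were lower in 21 of 23 cases with a median of -0.18, and 3 had an unadjusted p under 0.05. ITGB2, an integrin of leukocytes, had a log2 fold change of -0.42 ± 0.16, and GPR34, a microglial receptor, of -0.39 ± 0.18. By cohort, 20 of 23 were lower in cohort 1 (median -0.32) and 10 of 23 in cohort 2 (median 0.04). Complement genes followed the same course, with 15 of 18 lower (median -0.20), 15 in cohort 1 and 10 in cohort 2, while in AGA piglets the median was 0.23. Besides CFP, the component C2 had a log2 fold change of -0.66 ± 0.32 and the inhibitor CFI of -0.26 ± 0.13. Without SGA CON replicate 3, 11 of 18 complement genes were lower (median -0.10). Without SGA HF 2, SGA CON 2 and SGA CON 3 together, 9 of 18 complement genes and 19 of 23 microglial genes were lower.

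Heat shock chaperones, which fold newly made and damaged proteins, were lower in 20 of 22 cases with a median of -0.13, and 6 of them had an unadjusted p under 0.05, with none higher at that level. HSPA8, the constitutive cytosolic chaperone, stood at 47.2, 73.5 and 86.0 CPM in SGA HF and 55.8, 78.85 and 115.7 CPM in SGA CON. Its log2 fold change was -0.32 ± 0.099 (edgeR adjusted p = 0.515, exact permutation p = 0.351). DNAJA1, a cochaperone, stood at 241, 280.5 and 320.5 CPM in SGA HF and 278, 321 and 405 CPM in SGA CON (-0.23 ± 0.093). HSPD1 and HSPA9, both mitochondrial, had -0.16 and -0.14. The direction was present in both cohorts, with 21 of 22 lower in cohort 1 and 16 in cohort 2, and 15 of 22 were lower in both, against 24.7% of all genes. Without SGA CON replicate 3, 18 of 22 were lower with a median of -0.07, and without that library, SGA CON replicate 2 and SGA HF replicate 2 together, 15 of 22 were lower with a median of -0.05. In AGA piglets the log2 fold change of HSPA8 was 0.23, and the test of the difference between the size classes passed the threshold, at -0.55 (edgeR adjusted p = 0.391).

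**Figure D3:**
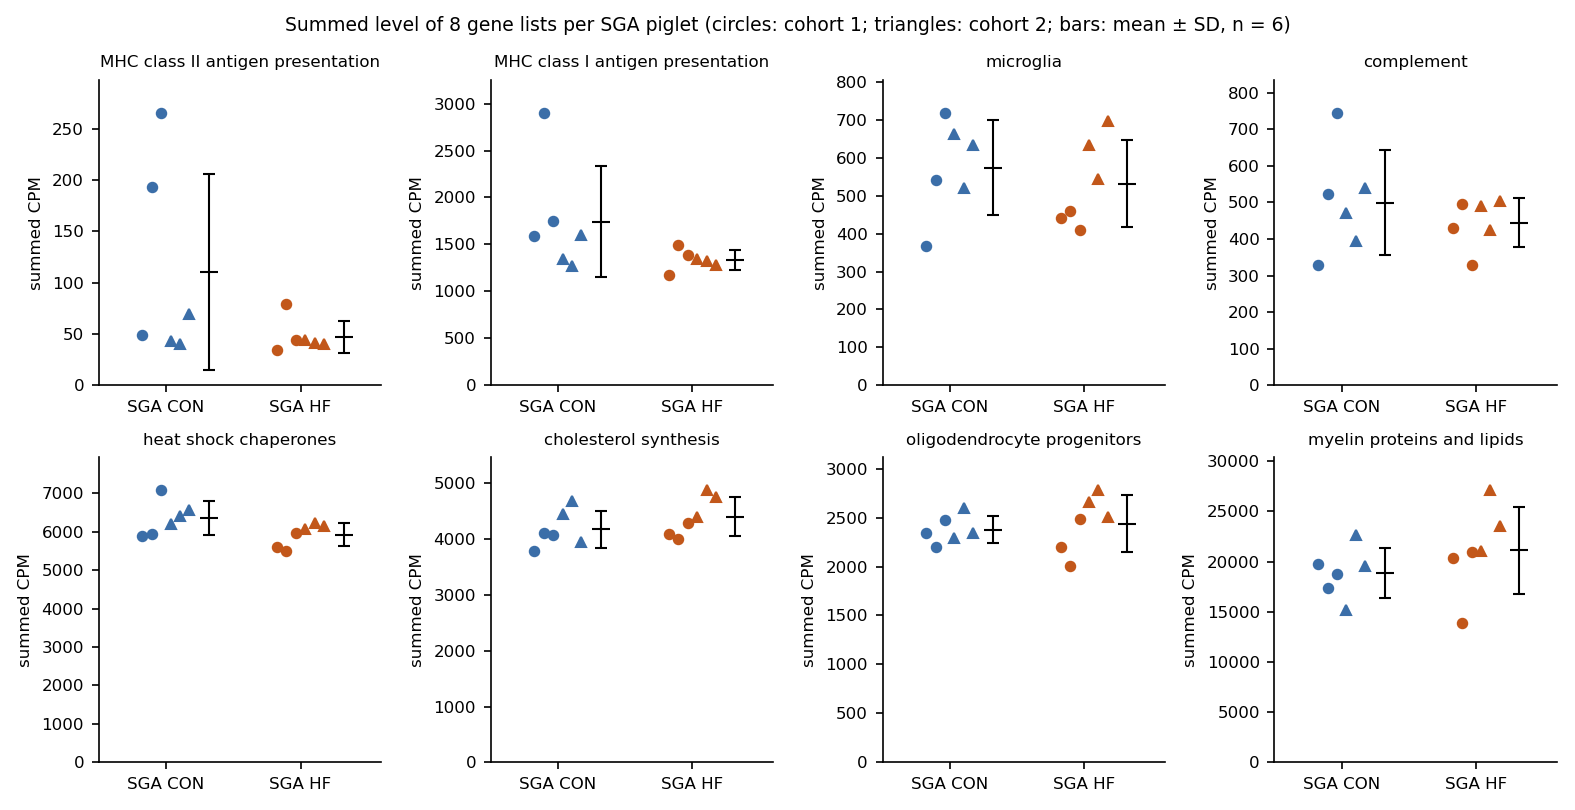
Summed CPM (y axis, from 0) of the tested members of 8 gene lists in each SGA piglet, by diet (x axis); circles are cohort 1, triangles cohort 2, and bars give the mean ± SD of 6 piglets. The class II sums of SGA CON reach 265.8 CPM in replicate 3 while SGA HF stays at or below 79.0 CPM, and the diets overlap in all 8 panels.

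The lists of lipid metabolism, the pathways nearest to the formula, had medians close to that of all genes. Of 22 genes of fatty acid synthesis, desaturation and elongation, 11 were higher and 11 lower (median 0.01) and none had an unadjusted p under 0.05. The counts were 13 higher and 16 lower for fatty acid oxidation and PPAR targets (median -0.0090, none under 0.05), 14 and 13 for fatty acid uptake and phospholipid synthesis (median 0.0016), 8 and 10 for lipoprotein and sterol transport (median -0.04) and 8 and 13 for arachidonic acid and prostaglandin enzymes (median -0.05). FABP7, the fatty acid binding protein of radial glia and astrocytes, stood at 554, 646 and 727 CPM in SGA HF and 610, 698.5 and 1042 CPM in SGA CON (log2 fold change -0.24 ± 0.083, edgeR adjusted p = 0.575). Of 16 perilipins and lipid droplet enzymes 12 were lower (median -0.07), and in AGA piglets 12 of 16 were lower as well (median -0.15). HILPDA, an inhibitor of lipid droplet breakdown, stood at 4.10, 5.56 and 5.83 CPM in SGA HF and 5.75, 7.71 and 8.88 CPM in SGA CON (-0.44 ± 0.17, edgeR adjusted p = 0.639).

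Cholesterol synthesis genes were split 11 to 10 in the fit (median 0.0056), and 2 of them had an unadjusted p under 0.05, both higher in SGA HF. TM7SF2, a sterol reductase, stood at 259, 298.5 and 309.5 CPM in SGA HF and 202, 260 and 272 CPM in SGA CON (log2 fold change 0.26 ± 0.079, edgeR adjusted p = 0.485). PMVK, of the mevalonate pathway, stood at 34.6, 38.2 and 40.3 CPM in SGA HF and 24.6, 32.4 and 39.85 CPM in SGA CON (0.22 ± 0.10). The split depended on the covariates. In the fit of the 12 SGA libraries alone with sex and cohort and no surrogate variables, 17 of 20 tested genes were higher with a median of 0.11, and 13 of 21 were higher in both cohorts.

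Genes of oligodendrocyte progenitors were higher in 11 of 16 cases (median 0.07), and 3 had an unadjusted p under 0.05, all higher. SOX10, a transcription factor of the oligodendrocyte lineage, stood at 4.86, 8.34 and 13.5 CPM in SGA HF and 3.45, 5.22 and 7.04 CPM in SGA CON (log2 fold change 0.55 ± 0.23, edgeR adjusted p = 0.667). GPR17, a receptor of cells about to differentiate, stood at 176, 225 and 257 CPM in SGA HF and 133.5, 170 and 229 CPM in SGA CON (0.23 ± 0.098). SOX6, which holds progenitors back from differentiation, had 0.34 ± 0.11. Of the 16 genes 10 were higher in both cohorts and none lower in both, beside 24.8% and 24.7% of all genes. The median was 0.02 without SGA HF replicate 4 and 0.03 without SGA CON replicate 3, with 11 of 16 genes higher in both fits and 2 and 1 of them at an unadjusted p under 0.05.

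Myelin genes were even in the fit, with 13 of 26 higher (median 0.01). CMTM5, a myelin membrane protein, stood at 56.2, 80.5 and 99.8 CPM in SGA HF and 50.8, 60.4 and 68.5 CPM in SGA CON (log2 fold change 0.33 ± 0.12, edgeR adjusted p = 0.585), OPALIN had 0.23 ± 0.13 and GJB1, a gap junction protein, had 0.27 ± 0.14. MBP, a major structural protein of myelin, had -0.11 ± 0.13. Here too the covariates mattered. In the fit of the 12 SGA libraries with sex and cohort and no surrogate variables, 22 of 26 were higher with a median of 0.14 and 5 had an unadjusted p under 0.05, and in cohort 2 alone 24 of 26 were higher with a median of 0.33, against 14 of 26 with a median of 0.01 in cohort 1 alone. The summed level was 13929, 20987 and 27142 CPM in SGA HF and 15194, 19150 and 22663 CPM in SGA CON, so the lowest and the highest piglet were both on the HF formula.

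Neuronal lists were nearly even. Of 36 synapse genes 19 were higher (median 0.0067), with a median difference of 0.04 in cohort 1 and -0.15 in cohort 2. GRIA4, a glutamate receptor subunit, had a log2 fold change of -0.42 ± 0.15 and GABRB2, a GABA receptor subunit, of 0.84 ± 0.35. Immediate early genes, which neurons switch on after activity, were split 10 to 11. Genes of dentate granule cells and immature neurons were higher in 10 of 12 cases (median 0.09), led by C1QL3 at 54.3, 77.2 and 94.0 CPM in SGA HF and 52.3, 62.3 and 79.25 CPM in SGA CON (0.33 ± 0.15), but in cohort 2 7 of 12 were lower. Of 38 respiratory complex I genes 27 were higher (median 0.06, 1 called), and without surrogate variables, in the 12 SGA libraries, 12 of 38 were.

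Of 22 genes of the growth hormone and insulin-like growth factor axis 9 were higher (median -0.05). Apart from SOCS2, SST, which encodes somatostatin, had a log2 fold change of 0.30 ± 0.13, and INSR, the insulin receptor, had a fitted value of -0.66 ± 0.30. The group values of INSR hardly differed, with a mean of 2.12 CPM in SGA HF and 2.22 CPM in SGA CON. Its difference in mean log2 CPM was -0.075 (exact permutation p = 0.786). Glucocorticoid-induced genes were lower in 14 of 18 cases (median -0.10), with PER1, a clock gene, at -0.18 ± 0.080 and LCN2, an iron-binding acute phase protein, at 1.35 ± 0.59. LCN2 was highest in the libraries with meningeal transcripts, SGA HF replicates 1 and 2 (9.68 and 18.7 CPM) and SGA CON replicate 6 (8.22 CPM). The other SGA libraries stood at 3.48 CPM or less. Its difference in mean log2 CPM was 2.12 in cohort 1 and -0.51 in cohort 2 (exact permutation p = 0.260). No gene of these lists was called. Among markers of other cell types, those of neurons (7 of 15 higher), astrocytes (6 of 16), endothelium and pericytes (10 of 21), ependyma (5 of 10), erythrocytes (3 of 5), hypothalamus (3 of 6), striatum (3 of 8), thalamus (2 of 10), choroid plexus (3 of 8), anterior pituitary (3 of 7, with GH1 called) and hippocampal neurons (6 of 12) had medians between -0.21 and 0.04.

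**Figure D4:**
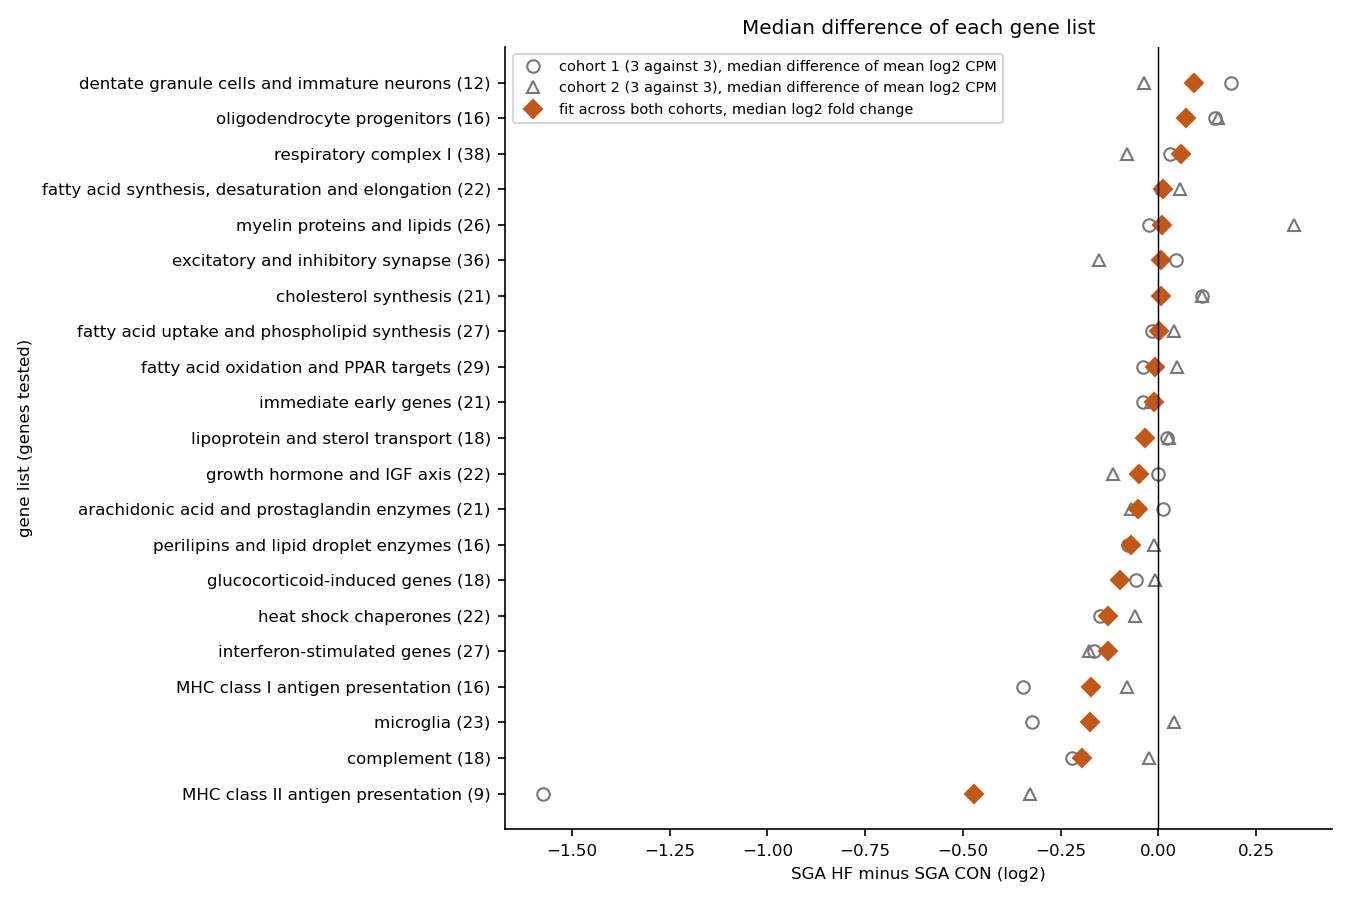
Median difference between SGA HF and SGA CON (x axis, log2) of each gene list (y axis, number of genes tested in brackets); diamonds are medians of the fitted log2 fold changes, and circles and triangles are medians of the differences in mean log2 CPM within cohort 1 and cohort 2. Class II antigen presentation lies lowest at -0.47 (cohort 1 -1.57, cohort 2 -0.33), microglial genes change side between cohorts, and oligodendrocyte progenitor genes lie above 0 in both.

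How many genes were called depended on which piglets entered the fit. Leaving out 1 SGA library in turn gave between 4 and 213 genes, with 4 when SGA HF replicate 5 was left out and 213 when SGA HF replicate 3 was. Without SGA HF replicate 3, SGA CON replicate 4, SGA CON replicate 6, SGA CON replicate 1 or SGA HF replicate 2 the counts were 213, 116, 66, 43 and 23. Without SGA HF replicate 4, 12 genes were called, 10 higher and 2 lower, and 5 of them were among the 15. Of the 15, GH1 was kept in 11 of the 12 fits, LOC100512054 in 10, LOC102161607 in 9, LOC102165614 and PSORS1C2 in 8, TSSK4, LOC100155915 and LOC102168097 in 7, MCFD2, FAM122B, NDUFA12 and LOC100623458 in 6 and CLDN6 in 5. PRG4 was kept in 8 of the 11 fits in which it was tested. The 12 SGA libraries fitted alone with sex and cohort gave 0 genes (732 with an unadjusted p under 0.05, edgeR), while DESeq2 on the full design gave 31, of which 9 were among the 15.

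**Figure D5:**
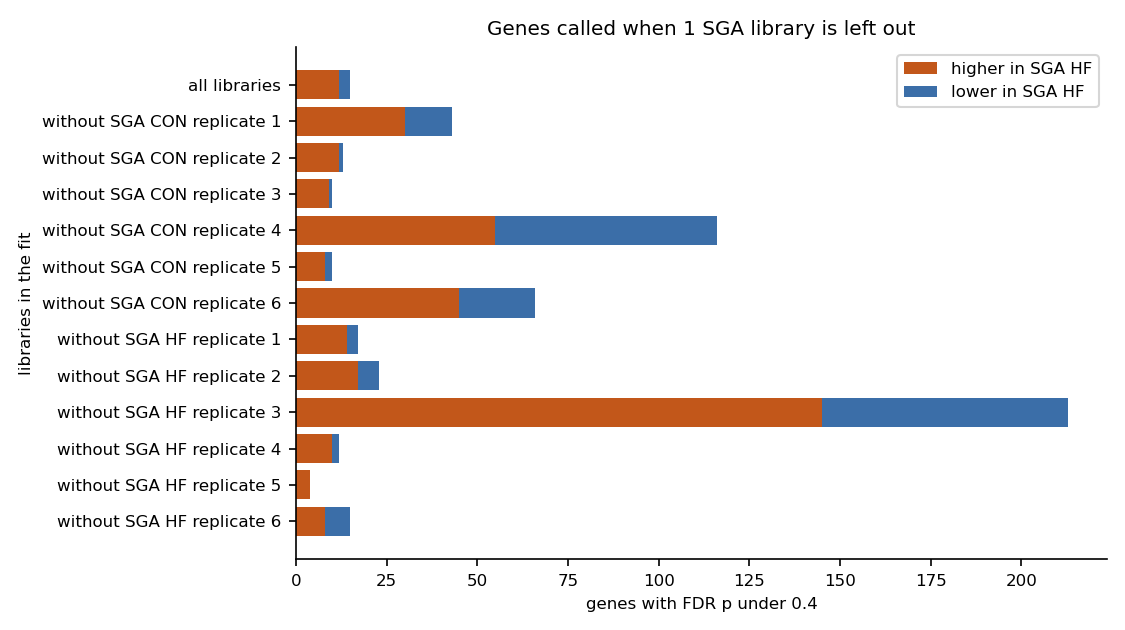
Number of genes with an adjusted p under 0.4 (x axis, from 0) in the fit of all libraries and in the 12 fits that leave out 1 SGA library each (y axis), divided into genes higher and lower in SGA HF. The counts run from 4 without SGA HF replicate 5 to 213 without SGA HF replicate 3, against 15 with all libraries.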

How the data were processed

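Hippocampal RNA of 24 piglets was sequenced as stranded poly(A) libraries. The authors trimmed reads with Trimmomatic 0.33, aligned them with STAR 2.5.2a to Sscrofa10.2 and counted reads per gene by strand with featureCounts of Subread 1.5.0, and the deposited values are raw counts of 38882 genes, as the file headers and the submitters' processing notes give. Symbols were matched by gene ID for 15993 of these genes, and 0.613 to 1.0% of SGA counts fell on an entry without an identifier, which was left out. Members, gene lists and tests were chosen with earlier results of these data known. A gene entered the tests when 3 or more libraries held it at 1 CPM or above, and libraries were scaled by TMM. The fit held 4 groups, sex and 5 surrogate variables (sva 3.50.0, log2 CPM, prior count 2), tested with edgeR 4.0.16 (R 4.3.3) by the quasi-likelihood F test, with the SE taken as the log2 fold change over the root of F, and adjusted over 114282 tests. Exact permutation tests used differences of mean log2 CPM over all splits of 6 against 6, without covariates and without adjustment. CPM in the text are counts over each library's total of tested genes times its TMM factor. Only the range given for 3 counts in single libraries uses plain totals. Named genes were those called, the next smallest p up to 15 with a symbol in each direction, and for each list the 3 members with the smallest p, with markers of other tissues above 1 CPM. MBP, PROX1, IGHG-like LOC396781 and genes without overlap were named after their values were seen. Alternatives used limma 3.58.1 and DESeq2 1.42.0, left out each SGA library, and changed covariates, scaling and filter. The script was tested on simulated data. No genome was used, so no sequence is shown.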

Additional observations from a re-analysis of the deposited data

Results flagged for a closer look

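In 90 genes followed here, the highest or lowest of the 6 piglets of a diet was compared with the others by Dixon's ratio at its 95% critical value, and 28 of 180 groups stood out. The rate of 1 in 20 groups flagged by chance holds for normally distributed values in genes chosen without regard to them. Several of these genes were followed because single libraries were high, and some groups held mostly zeros. The number flagged is therefore a description and no test. Of the 28, SGA CON replicate 6 held 7, SGA HF replicate 2 held 6, and SGA HF replicate 4 and SGA CON replicate 2 held 4 each.

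In SGA HF replicate 4 the pituitary transcripts GH1 (306 CPM), LHB (15.1 CPM), PRL (7.37 CPM) and CGA (7.13 CPM) stood apart. In SGA CON replicate 6 these were TNMD (2.47 CPM), PRG4 (0.822 CPM), CRABP2 (6.41 CPM), SLC13A4 (27 CPM), NDUFC2, a complex I subunit (5.26 CPM), LCN2 (8.22 CPM) and PER1 (572 CPM). SGA HF replicate 2 stood apart in PRG4 (2.78 CPM), LOC100623458 (41.5 CPM), LOC102161607 (40.7 CPM), LOC396781 (185 CPM) and the class II chains SLA-DRA (17.3 CPM) and SLA-DQA1 (13.5 CPM).

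SGA CON replicate 2 stood apart in LOC100623458 (46.3 CPM), LOC102161607 (47.5 CPM), LOC396781 (277 CPM) and SLA-3 (418 CPM), and SGA CON replicate 3 in LOC102168097 (5.54 CPM). In SGA CON replicate 1 TTR reached 146 CPM and INSR 3.91 CPM, and GH1 reached 0.758 CPM, from 5 counts, in SGA CON replicate 4. HILPDA was low at 4.1 CPM and BSCL2, the lipid droplet protein seipin, high at 386 CPM in SGA HF replicate 5, and PDK4, a kinase that restrains glucose oxidation, was high at 27 CPM in SGA HF replicate 3.

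The interaction test of size and diet passed the threshold of 0.4 for CLDN6 (log2 1.59, edgeR adjusted p = 0.375) and HSPA8 (-0.549, edgeR adjusted p = 0.391). Both genes were chosen by the SGA diet contrast, which forms part of that test. The test also passed for LOC102168097 (6.09), whose mean was 0.125 CPM in SGA HF and 0.941 CPM in SGA CON, against the fitted direction.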

How the results depend on the processing

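Of 30 alternatives, 11 gave a count within 1.5 times the 15 genes called. Leaving out 1 SGA library gave 4 to 213 genes. The 12 SGA libraries alone gave 0 genes with sex and cohort, 0 with diet as the single term (611 with an unadjusted p under 0.05) and 1 with the replicate block, and cohort 1 and cohort 2 alone gave 0 each (757 and 648 under 0.05, edgeR). With sex and no surrogate variables 2 genes were called, by DESeq2 31, by limma voom 5, with a filter of 1 CPM in 6 or more libraries 5, with adjustment over the single contrast 8, and at a threshold of 0.05 1. Chosen after seeing the data, leaving out SGA HF 1, SGA HF 2 and SGA CON 6 gave 39, and leaving out SGA HF 2, SGA CON 2 and SGA CON 3 gave 1. Fits with sex and cohort gave 13 genes and with litter as a random effect 16, but only 3 and 2 of these were among the 15.

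The labels put same-numbered piglets of the diets in different littermate pairs. Same-numbered piglets correlated above 0.1 in 3 of 6 cases (-0.086 to 0.213), and 3 of 6 HF piglets correlated best with their own number. These values do not settle whether same-numbered piglets share variation. The block result is therefore given here alone.

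Over the genes called, 195 gene and alternative combinations kept direction and call, 212 kept the direction and lost the call, and 19 reversed. The reversed log2 fold changes of LOC100623458, LOC102161607 and LOC102168097, in this order, were as follows. In the 12 SGA libraries they were -1.34 and -1.57 with sex and cohort, -0.34 and -0.45 with diet alone and -1.11 and -1.32 with the replicate block, and in cohort 1 alone -0.31 and -0.42, for the former 2 genes. In 24 libraries they were -0.86, -1.01 and -3.06 with sex, -1.21, -1.47 and -3.15 with sex and cohort, and -0.53, -0.66 and -0.22 with litter as a random effect. LOC102161607 was at -0.48 without SGA HF replicate 2 (up to 5.25 in the other such fits) and -0.70 without SGA HF 1, SGA HF 2 and SGA CON 6. CRABP2, not called, was at -0.79 in cohort 2 alone. The cause was not tested. For genes not called, 89 of 621 combinations passed the threshold.

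List medians of class II and class I presentation, complement, heat shock chaperones, perilipins and thalamus markers were below 0 in all 28 alternatives computed for lists. That of oligodendrocyte progenitors was above 0 in all 28. These fits share most of their libraries, so a constant sign is not independent support. The medians came as near to 0 as -0.013 for class I, -0.015 for perilipins, -0.017 for complement and 0.016 for progenitors. Genes near 1 CPM rest on few counts, so differences there were detectable only when large. Counting intervals cover counting error only.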

Other observations

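SGA CON replicate 3 carried transcripts of activated myeloid cells and the acute phase that were nearly absent elsewhere, all named after their values were seen. SAA3, an acute phase apolipoprotein, had 514 counts there against at most 38 in any other library, and CCL22, a chemokine of dendritic cells and macrophages, had 337 against at most 3. The protease MMP9 had 184 counts against at most 2, S100A12 and S100A9, calcium-binding proteins of neutrophils and monocytes, had 161 and 122 against at most 6 and 9, and ARG1 had 76 against at most 1. Of the 15 such genes 11 did not pass the filter on low levels, which asks for 3 libraries, so they entered no test.

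CCHCR1, a coiled-coil protein gene, ends 813 bases before PSORS1C2 starts, at 27275511 to 27289702 on chromosome 7, on the same strand. It was higher in SGA HF, at 13.2, 14.1 and 16.4 CPM (lowest, median, highest) against 8.83, 10.9 and 12.6 CPM in SGA CON, without overlap, while PSORS1C2 was lower. The log2 fold change of CCHCR1 was 0.37 ± 0.12 (edgeR adjusted p = 0.560, not called), with 0.43 in cohort 1 and 0.42 in cohort 2 in mean log2 CPM, and in AGA piglets it was -0.04. The pair was noticed after the values were seen.

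The SGA HF libraries with the highest STK24, replicates 2, 4 and 5, were also the 3 SGA libraries with more than 1 CPM of LOC100512054. Among AGA libraries the 2 genes went apart, since STK24 was high in HF replicate 6 and CON replicate 4 and LOC100512054 was present in HF replicates 4 and 5.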
